A study of Mus musculus with 6 samples.

Results

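The redox defence genes followed here, 6 in number, were measured in mouse mammary tumour cells with and without Akt1, and they are Txnrd1, Srxn1, Gclm, Hmox1, Sod2 and Keap1. They were chosen by their gene symbol in the authors' deposited expression sheet, which gave 7 probe sets (2 for Keap1 and 1 for each of the others) of 45037 probe sets that are not array controls. That sheet carries symbols for 5604 of these probe sets, which name 4462 genes, all with a deposited p-value under 0.05 for the same comparison of genotypes, so the members were selected on a difference between the genotypes and their values are given as a description. Any further probe sets of these genes carry no symbol in the sheet and were not analysed here. The deposited p-values of the 7 lay between 0.00019 and 0.029, the highest of any named probe set was 0.04999, and the lowest of a probe set past that limit was 0.05002.

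The study placed 3 akt(+/+) lines (31, 101 and 102), wild type for Akt1, beside 3 akt(-/-) lines (72, 75 and 116), which lack it, with 1 array for each line. Lines of both genotypes were grown out of spontaneous mammary tumours of MMTV-ErbB2 mice, in which a viral promoter active in mammary epithelium drives the ErbB2 oncogene, and both genotypes therefore carry that transgene. Per the labels, every line was kept in medium with serum, insulin, hydrocortisone, EGF and cholera toxin, and fibroblasts were depleted by a short plating step. Age is not in the labels, nor is the number of mice behind the lines. The p-values therefore speak of the spread among 6 lines. Levels are the deposited log2 units of 1 array per line, differences are akt(-/-) minus akt(+/+) on that log2 scale, and errors are SD over 3 lines unless named otherwise.

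Cells keep peroxides and oxidised protein thiols in check with electrons from NADPH, passed on through a thioredoxin branch and a glutathione branch. Many genes of both branches are targets of NRF2, a transcription factor encoded by Nfe2l2 that binds antioxidant response elements together with small Maf proteins. KEAP1 holds NRF2 in the cytosol and hands it to a cullin ubiquitin ligase for destruction, and oxidants or electrophiles that modify KEAP1 let NRF2 accumulate. Akt kinases inhibit GSK3, which can mark NRF2 for degradation by another route, and they also keep FoxO factors, known activators of Sod2, out of the nucleus. Txnrd1, Srxn1, Gclm and Hmox1 are known NRF2 targets.

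Promoters of 3 members are shown because they belong to NRF2 targets that differed in opposite directions, Txnrd1 and Gclm lower and Srxn1 higher in the akt(-/-) lines. The sequences are the 250 bases before the start site, from RefSeq on GRCm38.p6, 5′ to 3′ along the gene, and capitals mark matches read on the opposite strand. In Txnrd1 and Gclm the capitals are a form of the core of the antioxidant response element, TGACNNNGC, and in Srxn1 they are the AP-1 element TGACTCA.
Txnrd1, chr10:82858956-82859205, plus strand: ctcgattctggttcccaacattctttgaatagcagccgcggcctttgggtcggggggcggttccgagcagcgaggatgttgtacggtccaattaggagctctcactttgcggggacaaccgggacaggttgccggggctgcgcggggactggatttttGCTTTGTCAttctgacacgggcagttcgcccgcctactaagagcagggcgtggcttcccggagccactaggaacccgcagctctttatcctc
Gclm, chr3:122245307-122245556, plus strand: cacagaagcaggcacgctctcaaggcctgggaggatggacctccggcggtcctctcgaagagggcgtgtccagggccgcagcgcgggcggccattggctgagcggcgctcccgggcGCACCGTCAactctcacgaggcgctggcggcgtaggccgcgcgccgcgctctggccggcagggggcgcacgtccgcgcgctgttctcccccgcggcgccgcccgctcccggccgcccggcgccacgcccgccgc
Srxn1, chr2:152105274-152105523, plus strand: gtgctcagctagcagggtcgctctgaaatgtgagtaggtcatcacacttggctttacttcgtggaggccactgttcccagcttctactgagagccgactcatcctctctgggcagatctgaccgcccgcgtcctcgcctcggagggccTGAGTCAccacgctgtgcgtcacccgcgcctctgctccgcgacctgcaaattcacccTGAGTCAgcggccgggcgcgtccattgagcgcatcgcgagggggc

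The Txnrd1 match, TGACAAAGC on the strand opposite the gene, lay 84 to 92 bases upstream of the start, in 1 of the 3 start site windows listed for the gene. The Gclm match, TGACGGTGC, lay 126 to 134 bases upstream. Srxn1 held TGACTCA at 39 to 45 and again at 96 to 102 bases upstream. Read along the gene, the match nearer the start is TGAGTCAgc, which has G where TGACNNNGC has C. That form was not searched, so Srxn1 cannot be said to lack an antioxidant response element. Whether the motifs go with the direction of the differences was not tested. Both strands were searched in the 7 windows of 5 members, and Hmox1 had no entry. Of all 32851 windows of that length, 10.2% held TGACNNNGC and 4.46% held TGACTCA, and these motifs can overlap each other. The form TGATNNNGC (6.79% of all windows) and the FoxO element GTAAACA (3.17%) were in none of the 7. The motifs were picked with the expression values known, and a match is a run of letters, not a measured binding site.

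Both probe sets of Akt1 followed the labels, with the brighter one at 9.94 ± 0.20 in the akt(+/+) and 4.53 ± 0.13 in the akt(-/-) lines (n = 3 each). Of 10 markers of mammary epithelium 4 had a symbol, 3 higher and 1 lower in the akt(-/-) lines, with 0 called (limma, 3 at an unadjusted p under 0.05, beside 80.0% of all named genes). Krt8 read 12.41 ± 0.09 in the akt(+/+) and 12.72 ± 0.12 in the akt(-/-) lines, Epcam 7.99 ± 0.19 and 8.79 ± 0.05, Krt5 4.91 ± 0.17 and 5.52 ± 0.15, and Cdh1 7.87 ± 0.14 and 7.16 ± 0.08. None of 9 fibroblast, 8 macrophage and leukocyte or 3 endothelial markers had one, so their levels could not be read. The array medians lay between 5.41 and 5.50, and the median difference over all probe sets was 0.03. The bioC spike-in control, added during array preparation, averaged 9.08 ± 0.15 on the akt(+/+) and 7.81 ± 0.18 on the akt(-/-) arrays, and its part in the results below was not tested. In the fit over all probe sets (limma), 48 probe sets, or 0.107%, were called at an adjusted p under 0.05, and 44 of them, or 0.0977%, were lower in the akt(-/-) lines. Txnrd1 was the 1 member among them. The count was 327 without line 75, 2 without line 31 and 1 without each of the other 4 lines.

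Txnrd1 had the largest difference of the 7 probe sets. Its product, thioredoxin reductase 1, is the cytosolic selenoenzyme that uses NADPH to reduce thioredoxin. The probe set 1424486_a_at read 6.89, 6.56 and 6.78 in akt(+/+) lines 31, 101 and 102, and 5.20, 4.97 and 4.91 in akt(-/-) lines 72, 75 and 116. The groups did not overlap, and the span of 1.36 between them was wider than the range within either (0.33 and 0.29). The difference was -1.72 with a standard error of 0.15, or 3.29-fold lower without Akt1, and 0.406% of all probe sets differed by more in either direction. It lay above 63.7% to 67.2% of all probe sets of an akt(+/+) array, and above 42.4% to 46.9% of those of an akt(-/-) array. Its adjusted p in the whole fit was 0.0346, rank 13 of all probe sets. The call depended on which lines were kept. It ended without line 31, 101, 102, 72 or 116 (adjusted p 0.128 to 0.163) and held without line 75 (0.0446), while the difference stayed between -1.81 and -1.64. Those 5 omissions also cut the calls over all probe sets from 48 to 1 or 2, so the loss was not particular to Txnrd1. A bulk array cannot tell fewer cells that express a gene from less RNA in each cell, here and for every gene below.

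Srxn1 encodes sulfiredoxin, which restores peroxiredoxins whose active cysteine has been overoxidised, and it was higher where Txnrd1 was lower. Its probe set read 5.89, 5.72 and 6.0 in akt(+/+) lines 31, 101 and 102, and 6.54, 6.22 and 6.69 in akt(-/-) lines 72, 75 and 116. Every akt(-/-) line lay above every akt(+/+) line, with line 75 only 0.22 above the highest of them. The difference was 0.61 ± 0.17 (standard error), or 1.53-fold, which did not pass (adjusted p = 0.171).

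Gclm encodes the modifier subunit of glutamate-cysteine ligase, the rate-limiting enzyme of glutathione synthesis. It read 10.04, 9.61 and 9.73 in akt(+/+) lines 31, 101 and 102, and 8.81, 8.77 and 8.51 in akt(-/-) lines 72, 75 and 116. The groups were separated by 0.80, more than the 0.43 and 0.30 spanned within them. The difference was -1.10 ± 0.17 (standard error), 2.14-fold lower, with an adjusted p of 0.071. The catalytic subunit gene Gclc went the same way with a smaller difference, -0.54, from 8.06 ± 0.14 to 7.52 ± 0.25 (adjusted p = 0.218).

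Hmox1, which encodes the inducible heme oxygenase that splits heme into biliverdin, carbon monoxide and iron, was higher without Akt1. Its probe set read 6.34, 6.71 and 7.48 in akt(+/+) lines 31, 101 and 102, and 8.09, 7.83 and 8.14 in akt(-/-) lines 72, 75 and 116. The akt(+/+) lines differed among themselves by 1.14, the widest range of any member in either genotype, and line 102 came within 0.35 of the lowest akt(-/-) line. The SD was 3.50 times as large in the akt(+/+) as in the akt(-/-) lines. The difference was 1.18 ± 0.29 (standard error), 2.26-fold higher, with an adjusted p of 0.151. Without line 102 it was 1.5 and without line 31 it was 0.93.

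Sod2 encodes the manganese superoxide dismutase of mitochondria, which turns superoxide into hydrogen peroxide. It read 10.74, 10.84 and 10.66 in akt(+/+) lines 31, 101 and 102, and 10.04, 9.68 and 9.92 in akt(-/-) lines 72, 75 and 116. The akt(+/+) lines lay within 0.18 of each other and the groups were 0.62 apart. The difference was -0.86 ± 0.14 (standard error), 1.82-fold lower, with an adjusted p of 0.0813.

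**Figure D1:**
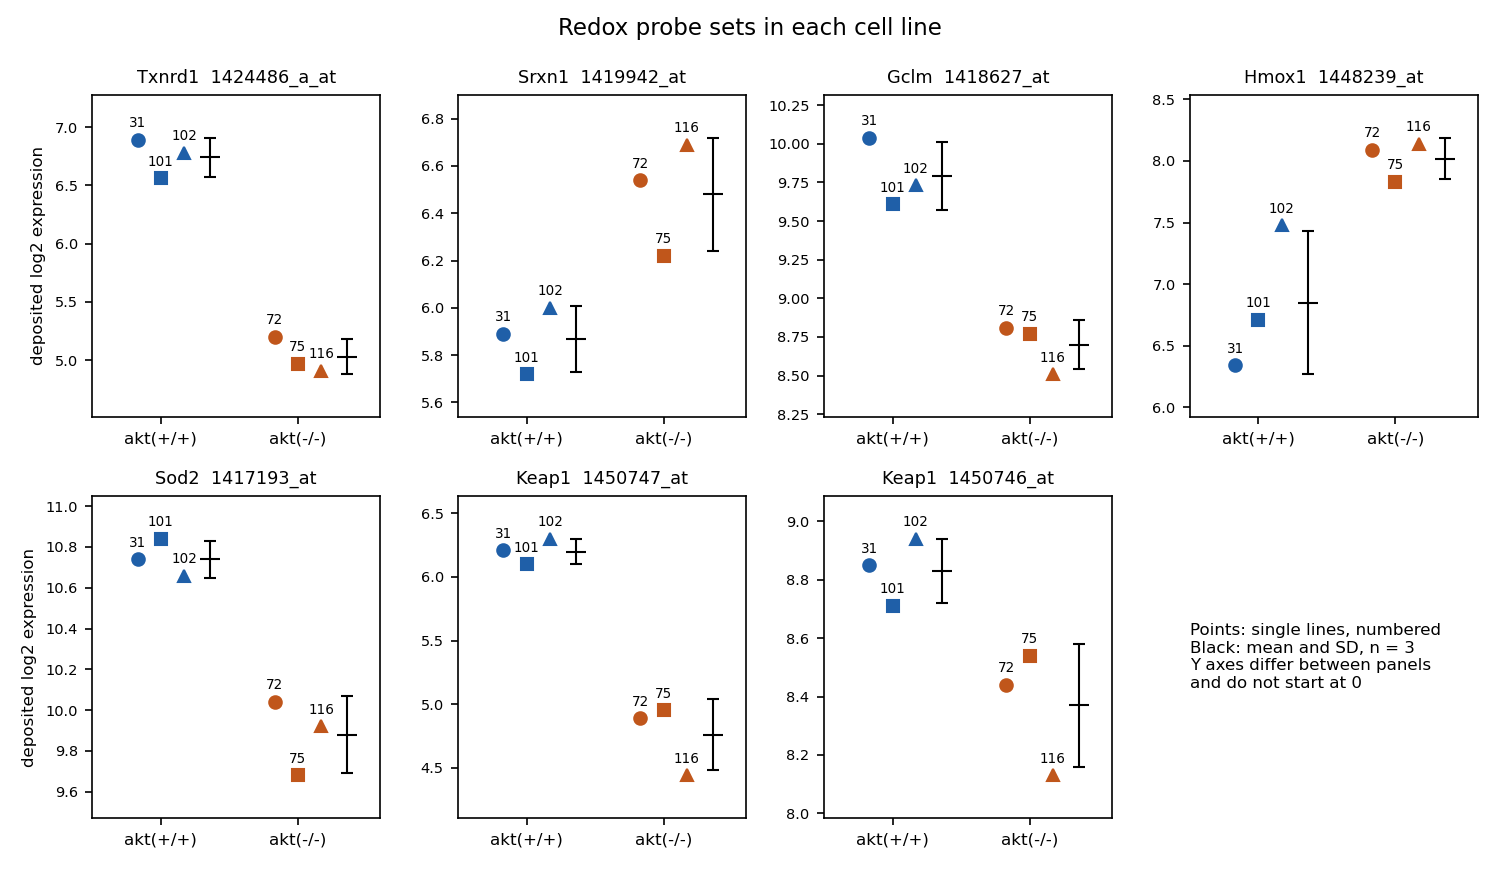
Deposited log2 expression of each of the 7 probe sets (y axes, which differ between panels) by genotype (x axis), with 1 numbered point per line and the mean ± SD of 3 lines in black. Txnrd1, Gclm, Sod2 and both Keap1 probe sets lie lower in all akt(-/-) lines, Srxn1 and Hmox1 lie higher, and akt(+/+) line 102 is nearest to the akt(-/-) lines for Hmox1.

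Keap1, the gene of the NRF2 inhibitor, was lower on both of its named probe sets, by unequal amounts. The dimmer one, 1450747_at, read 6.21, 6.10 and 6.30 in akt(+/+) lines 31, 101 and 102, and 4.89, 4.95 and 4.44 in akt(-/-) lines 72, 75 and 116. That is a difference of -1.44 ± 0.17 (standard error), 2.72-fold lower, with an adjusted p of 0.0523. The brighter one, 1450746_at, read 8.85, 8.71 and 8.94 in the same akt(+/+) lines and 8.44, 8.54 and 8.13 in the akt(-/-) lines. Its difference was -0.46 ± 0.15 (standard error), 1.38-fold lower, with an adjusted p of 0.239 and 0.17 between the groups. On both probe sets line 116 was the lowest and line 102 the highest of the 6.

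The brighter Keap1 probe set lay above the dimmer one by 2.64, 2.62 and 2.64 in akt(+/+) lines 31, 101 and 102, and by 3.55, 3.59 and 3.69 in akt(-/-) lines 72, 75 and 116. This gap was thus nearly constant within a genotype (SD 0.01 and 0.07) and 0.98 wider in the akt(-/-) lines. The place of each probe set along the transcript was not analysed here. A gap between the 3' and 5' ends of a control transcript, which widens when RNA is degraded or incompletely copied, was wider on the akt(-/-) arrays too. For Actb it was 2.88, 2.98 and 3.29 in akt(+/+) lines 31, 101 and 102 and 3.53, 3.48 and 3.44 in akt(-/-) lines 72, 75 and 116, a difference of 0.43 (exact two-sided permutation p = 0.1, the smallest that 3 against 3 arrays allow). For Gapdh it differed by 0.75 with overlapping groups (exact permutation p = 0.2). Actb itself was lower in the akt(-/-) lines on its control probe sets. They differed by -0.97 at the 3' end, -1.54 in the middle and -1.40 at the 5' end. The middle one thus fell by no less than the 5' one. The part of these control gaps in the results for Keap1 or the other members was not tested.

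**Figure D2:**
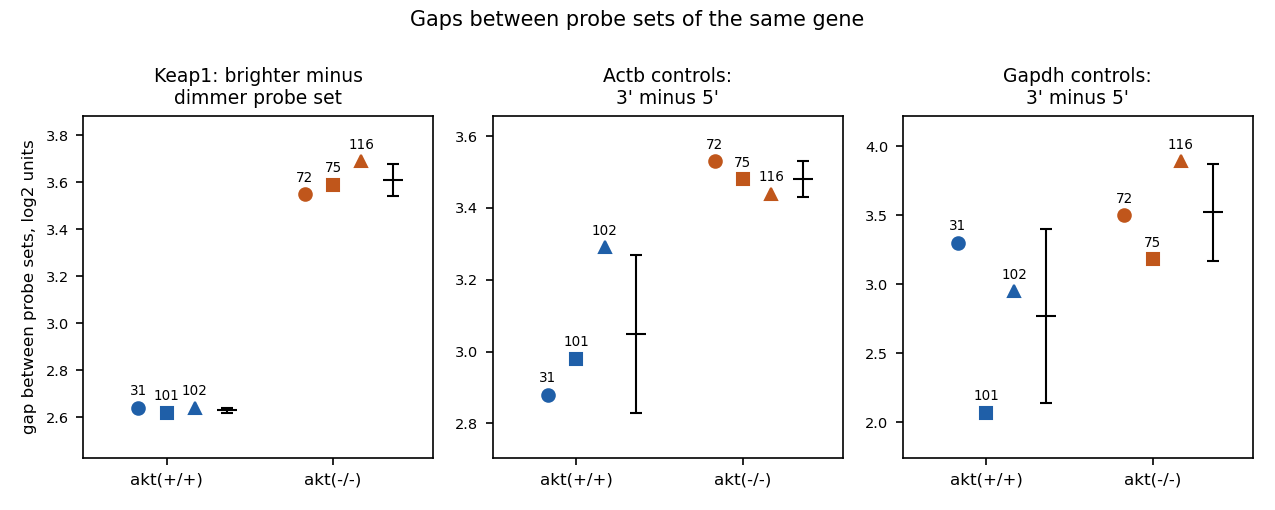
Gap in log2 units (y axis) between the 2 Keap1 probe sets, and between the 3' and 5' control probe sets of Actb and Gapdh, in each numbered line by genotype, with mean ± SD of 3 lines in black. The Keap1 gap is 2.62 to 2.64 in the akt(+/+) lines and 3.55 to 3.69 in the akt(-/-) lines, the Actb gap is also wider in every akt(-/-) line, and the Gapdh gaps overlap.

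Across the members, 5 of 7 probe sets lay lower without overlap in the akt(-/-) lines and 2 lay higher. Over all probe sets 10.8% lay lower and 11.1% higher without overlap, and since the members were chosen for a difference nothing is read from their count. Within a genotype no line stood at the same end throughout. Of the akt(+/+) lines, 101 was nearest to the akt(-/-) mean for 4 of the 7 probe sets and 102 for 3, and 31 for 0. Of the akt(-/-) lines, 75 was nearest to the akt(+/+) mean for 4 and 72 for 3, and 116 for 0. Line 116 had the lowest Txnrd1, Gclm and Keap1 and the highest Srxn1 and Hmox1 of the 6 lines, while its Sod2 lay between that of lines 72 and 75.

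**Figure D3:**
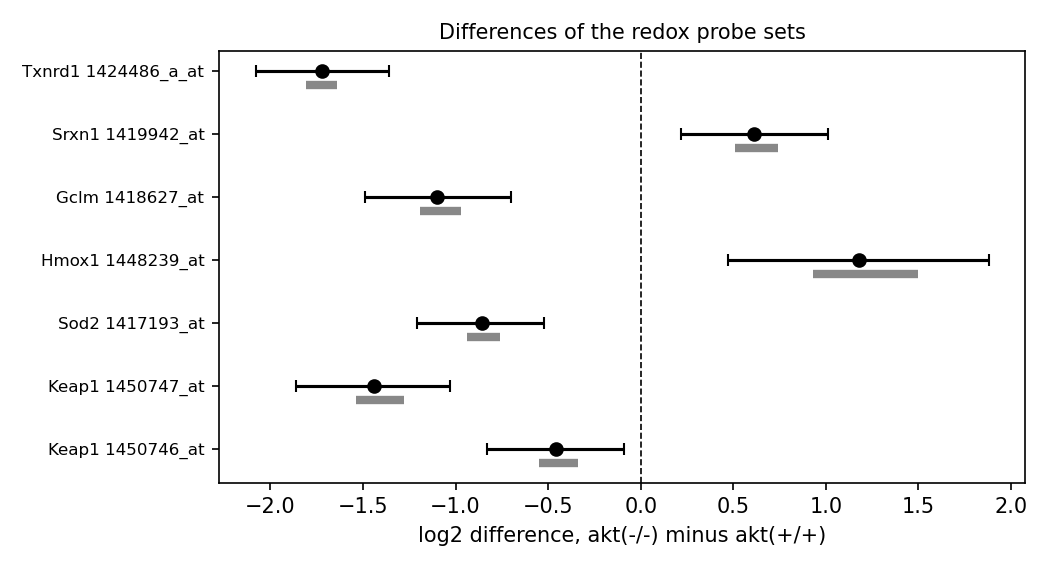
Log2 difference, akt(-/-) minus akt(+/+) (x axis), of each probe set with its 95% confidence interval from the limma fit (black), and below it in grey the range of the difference when each line in turn was left out. Txnrd1 at -1.72 and Hmox1 at 1.18 lie at opposite ends; no grey range reaches 0, which groups that do not overlap already fix.

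Around the members, 9 lists of redox genes with 189 genes in all were counted, with 1 probe set per gene (the brightest named one). Of these genes 52 had a symbol in the sheet, and 24 of them, or 46.2%, were lower in the akt(-/-) lines, beside 50.9% of all 4462 named genes and 46.1% of all probe sets. The median difference of the 52 was 0.18, beside -0.16 over all named genes. At an unadjusted p under 0.05 stood 46 of the 52, or 88.5%, beside 80.0% of all named genes, since naming itself required a low p, and 15.4% of all probe sets. Where a count at an unadjusted p is given for a list below, it is to be read against that 80.0%. The lists hold genes of both directions, and the genes below did not pass unless an adjusted p under 0.05 is given.

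In the thioredoxin list 9 of 26 genes were named, 5 higher and 4 lower, with a median of 0.21 and Txnrd1 as the 1 called. At an unadjusted p under 0.05 (limma) stood 8 of the 9. Prdx3, the mitochondrial peroxiredoxin, averaged 9.93 ± 0.14 in the akt(+/+) and 8.53 ± 0.56 in the akt(-/-) lines, a difference of -1.40. Txndc5, a thioredoxin-like protein of the endoplasmic reticulum, differed by -1.09 (adjusted p = 0.0578), and Txndc9 by 0.58. Outside the naming rule, 3 more genes were added after their values were seen, as close partners of the members. Prdx1, a cytosolic peroxiredoxin that sulfiredoxin repairs, was 0.75 and 0.69 higher on its 2 named probe sets. Txn1, the substrate of thioredoxin reductase 1, was 0.42 higher, from 11.99 ± 0.09 to 12.41 ± 0.22, on its brightest probe set and 0.64 higher, from 5.83 ± 0.21 to 6.48 ± 0.07, on its other one. Its mitochondrial counterpart Txn2 differed by -0.42, -0.41 and -0.51 on 3 probe sets.

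In the glutathione list 9 of 46 genes were named, 5 higher and 4 lower, with a median of 0.13 and 0 called (limma, 7 at an unadjusted p under 0.05). Besides Gclm and Gclc the lower genes included Abcc1, an exporter of glutathione conjugates, at 6.20 ± 0.47 against 4.75 ± 0.04 (-1.45, adjusted p = 0.0794). Gsr, which returns oxidised glutathione to its reduced form, was 0.57 higher, and the glutaredoxin gene Glrx 0.47 higher. Of 18 genes of NADPH supply 3 were named, 1 higher and 2 lower, with a median of -0.48 and 0 called (limma, 3 at an unadjusted p under 0.05). Tkt, the transketolase of the pentose phosphate pathway, differed by -0.48 on its brightest and -1.36 on its other named probe set, Rpe by -0.50, and Idh2, a mitochondrial source of NADPH, was 0.85 higher.

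Of 18 genes that control NRF2, 12 were named, 7 higher and 5 lower, with a median of 0.26. At an unadjusted p under 0.05 (limma) stood 11 of the 12. Nfe2l2 itself had no named probe set. Crebbp, a coactivator of NRF2 among many other factors, was the 1 gene called, at -1.79 from 9.70 ± 0.20 to 7.91 ± 0.24 (adjusted p = 0.0398), while its other probe sets differed by -1.93 (adjusted p = 0.0346) and -0.16. Cul3, the ubiquitin ligase scaffold on which KEAP1 acts, was higher on all 3 named probe sets, by 0.81, 0.60 and 0.77, opposite to Keap1. Mafg, a small Maf partner of NRF2, was lower on both of its probe sets, at -1.01 and -1.07 (adjusted p 0.0682 and 0.11), and Bach2, a repressor of the same family as Bach1, at -1.02. The probe sets of Gsk3b disagreed, with 1.11 and 0.80 on 2 of them and -1.20 on the one that passed (adjusted p = 0.0422). Bach1, which represses Hmox1 in competition with NRF2, was added after its values were seen, and its probe sets disagreed as well, with 0.73 on the brighter and -0.93 on the dimmer one.

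Detoxifying enzymes of quinones and aldehydes were the list with all its named genes in 1 direction, 4 of 17 named and 4 higher, with a median of 0.96 and 0 called (limma, 4 at an unadjusted p under 0.05). Akr1c13, an aldo-keto reductase, averaged 5.18 ± 0.45 against 6.82 ± 0.36 (1.63 higher, adjusted p = 0.0839), and its close relative Akr1c12 was 0.91 higher; probe sets of such paralogs may share signal. Ephx1, a microsomal epoxide hydrolase, was 1.01 higher and the carbonyl reductase gene Cbr3 0.82 higher. In the heme and iron list, beside Hmox1, Aco1 differed by -0.58 (adjusted p = 0.187). It encodes the iron regulatory protein that is also cytosolic aconitase.

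Of 18 genes that make or remove superoxide and peroxide, 4 were named, 2 higher and 2 lower, with a median of 0.11 and 0 called (limma, 3 at an unadjusted p under 0.05). Catalase (Cat) was 0.49 higher, and Sod1, the copper and zinc enzyme of the cytosol, differed by -0.26 on its brightest and -0.59 on its other probe set. Xdh, a xanthine oxidoreductase that can form superoxide and also takes part in milk fat secretion, was 1.89 higher. In the list tied to FoxO 8 of 16 genes were named, 2 higher and 6 lower, with a median of -0.79 and 0 called (limma, 7 at an unadjusted p under 0.05). Beside Sod2 and Prdx3, the lower genes included Ppargc1a, a coactivator of mitochondrial genes, at -1.89, Foxo1 at -0.72 and Foxo3 at -0.95, and the remaining named probe sets of these FoxO genes differed by -0.71 and 0.59 (Foxo1) and by 0.36 (Foxo3). Of 19 genes of selenoprotein synthesis, the step on which thioredoxin reductase 1 depends, 4 were named, 2 higher and 2 lower, with a median of -0.05 and 0 called (limma, 4 at an unadjusted p under 0.05). Sephs2, which makes the selenium donor, was 0.73 higher, and its paralog gene Sephs1 0.35 higher. Secisbp2, whose product helps read UGA as selenocysteine, differed by -0.86, and Selenoi, itself a selenoprotein gene, was dim, at 2.96 ± 0.27 and 2.50 ± 0.08.

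**Figure D4:**
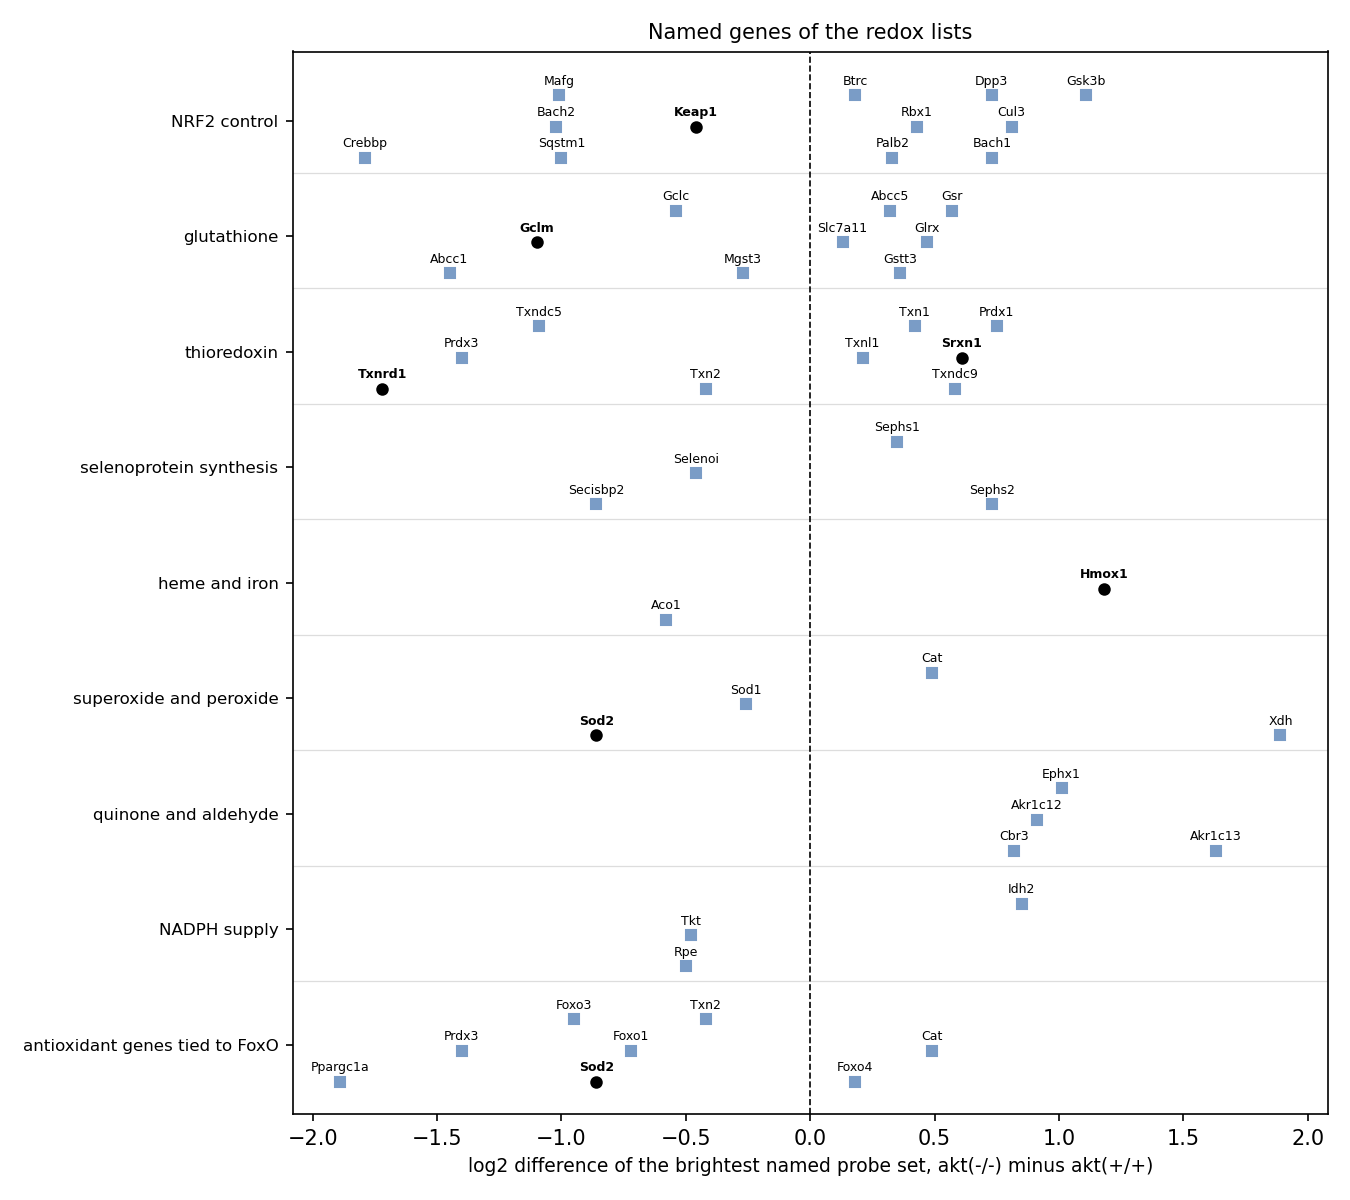
Log2 difference, akt(-/-) minus akt(+/+) (x axis), of the brightest named probe set of genes in the 9 redox lists (rows), with the 6 followed genes as black circles and other genes as blue squares; heights within a row are spread for legibility. The quinone and aldehyde genes all lie at 0.82 or above, and the other lists hold genes on both sides of 0.

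Some genes outside redox defence had nearly the same pattern over the 6 arrays, by Pearson's r with the brightest probe set of a member among 4462 named genes. These values follow largely from the shared difference of genotype and are a description over 6 points. Txnrd1 was most like Rap2b (r = 0.9967), Sf3b2 (0.9963) and Gnptab (0.9962), Srxn1 like Aard (0.9971), Ebf2 (0.9958) and Ighg1 (0.994), and Gclm like Socs7 (0.9997), Dnajb1 (0.9974) and Hdac4 (0.9962). Hmox1 was most like Moxd2 (0.9964), Rfx5 (0.9949) and Pcgf3 (0.9905), Sod2 like Otub1 (0.9957), Prkaa2 (0.9943) and Chka (0.9937), and Keap1 like Snrk (0.994), Rc3h2 (0.9933) and Rad52 (0.9931). Socs7, the closest of them, read 7.87, 7.63 and 7.72 in akt(+/+) lines 31, 101 and 102 and 7.17, 7.16 and 6.99 in akt(-/-) lines 72, 75 and 116, with the lines in the same order as for Gclm.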

How the data were processed

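Total RNA of 6 cell lines was amplified, labelled with biotin and hybridised, 1 array per line, per the labels' protocols. The authors deposited log2 expression values per probe set, on a common scale. Neither the labels nor the headers state the background correction, summarisation or normalization. The deposited p-value, the deposited log2 difference and the B score (a score beside it) come, per the file headers, from the authors' own comparison, and only p-values were used, to describe how members were named. The value table of the series matched the sheet to within 5.0e-09.

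Using R 4.3.3, lmFit and eBayes of limma 3.58.1 were run with no covariate and no filter on low values over 45037 probe sets, after 64 controls were left out, with Benjamini-Hochberg adjustment over all of them and a threshold of 0.05. The fit was checked on simulated data. No lines share a number, so no paired fit was made. Older symbols were matched to the GRCm38.p6 RefSeq table. Members, lists, motifs and tests were chosen with earlier results of these data known. The naming rule took the 6 members, Akt1, up to 5 genes per list by smallest p and the 3 genes most alike to each member. A result of 1 list gene is not reported here. Alternatives were quantile normalization, median centring, a dim filter, an intensity trend, a two-sample test, array weights, the mean of probe sets and leaving out each line. The number of arrays, 3 per genotype, limits the precision.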

Additional observations from a re-analysis of the deposited data

How the results depend on the processing

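The differences of the 7 probe sets were recomputed 85 times in all; 0 reversed and 8 changed a call. For Txnrd1 the two-sample test per probe set gave -1.72 (adjusted p = 0.152, not called), and leaving out lines gave -1.81 to -1.64. For the dimmer Keap1 probe set array weights gave -1.42 (adjusted p = 0.0385) and leaving out lines gave -1.54 to -1.28, called without line 75 (adjusted p = 0.0463). Over all alternatives the adjusted p ran from 0.0283 to 0.163 for Txnrd1, from 0.0385 to 0.201 for this Keap1 probe set and from 0.108 to 0.479 for the brighter one, whose mean with the dimmer differed by -0.95. Gclm ranged from 0.0558 to 0.227, Sod2 from 0.0582 to 0.233, Hmox1 from 0.0819 to 0.354 and Srxn1 from 0.103 to 0.399.

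Of all probe sets 48 were called, against 239 with array weights and 3 with the two-sample test. The count was 4 when the probe sets of each named gene were averaged and fitted together with the unnamed probe sets. It was 1 to 327 when a line was left out (327 without line 75, 2 without line 31, 1 without each other line). The cause of these shifts was not tested. Counts of lower genes in the 9 lists moved by over 1.5 times in 2 of 117 recomputations. In the NRF2 control list 12 of 22 probe sets were lower in place of 5 of 12 genes, so the unit and the total changed as well. In the selenoprotein list 1 gene was lower in place of 2 with dim probe sets left out. The number of arrays limits all of these values, and signal over background could not be read from the deposited values.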
